A study of Homo sapiens with 18 samples.

Results

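The genes described here are 37 genes of the secretory pathway and unfolded protein response of the endoplasmic reticulum (ER), taken by symbol from a list, by a rule that uses no measured value, although the list was drawn up with earlier results of these data known. All 37 were found, as 1 Ensembl identifier each, among the 60675 genes listed in the count files, and all 37 passed the filter on low counts in every comparison. They comprised 10 luminal chaperones and co-chaperones, 2 lectin chaperones, 5 protein disulfide isomerases, 4 genes of the translocon and signal peptidase, 4 genes of ER-associated degradation, 4 genes of the COPII coat and the KDEL receptors, and 8 stress sensors and transcription factors.

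Proteins destined for secretion enter the ER through the SEC61 translocon, fold with the help of luminal chaperones and disulfide isomerases, and leave in COPII vesicles, while proteins that fail to fold are returned to the cytosol for degradation. When unfolded proteins build up, the sensors IRE1 (encoded by ERN1), ATF6 and PERK start the unfolded protein response, in which the transcription factors XBP1, ATF6 and ATF4 raise the genes of this machinery and, under lasting stress, DDIT3 (CHOP) and TRIB3. The luminal epithelium of the prostate is a secretory tissue, and in it androgen drives the production of secreted proteins such as prostate-specific antigen (KLK3).

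RNA-seq was performed on 18 libraries of 2 prostate cancer cell lines, with 3 libraries in each of 6 groups. LNCaP is an established androgen-dependent line, and C4-2 (LNCaP:C42 in the labels) is its castration-resistant derivative. In each line the groups were cells with a non-targeting siRNA and vehicle (siScr vehicle), cells with the non-targeting siRNA and 1 nM of the synthetic androgen R1881 (siScr R1881), and cells with siRNA pools against the histone lysine demethylases KDM1A and KDM7A together, also with 1 nM R1881 (siKDM R1881). All 18 libraries therefore came from transfected cells kept in phenol red-free medium with charcoal-stripped serum, and samples with knockdown but no R1881 or with inhibitors of the demethylases, which the study's methods name, were not analysed here. An siRNA pool lowers its targets without removing them. The vehicle was given as DMSO in one part of the study's methods and as ethanol in another. The 3 C4-2 siScr vehicle libraries were placed by their titles, since their cell line field named LNCaP. The labels did not say that the libraries of a group came from separate cultures, so p-values measure the spread between these libraries, which may be technical.

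Libraries held 3182604 to 20154243 counts in genes, with a median of 18117641, and C4-2 siScr vehicle replicate 3 was the shallowest. 2 libraries stood apart from their groups. By the chi-square per gene between pairs of replicates, C4-2 siScr vehicle replicate 3 gave 16.9 and 16.6 against 4.89 for the other pair, and C4-2 siKDM R1881 replicate 1 gave 15.3 and 13.5 against 3.29, while the pairs of the other groups gave 2.41 to 10.2. Levels are given below as CPM, the counts of a gene scaled for library size, on 1 common TMM scale for all 18 libraries. KDM1A was at 104, 108 and 113 CPM in the LNCaP siScr R1881 libraries and at 48.5, 52.2 and 54.1 CPM after knockdown. In C4-2 it was at 146, 139.6 and 141 CPM in siScr R1881 and at 14.8, 19.9 and 14.6 CPM after knockdown. KDM7A fell from 55, 65 and 59.2 CPM to 27.7, 31.4 and 33.5 CPM in LNCaP and from 112, 118 and 132 CPM to 18.2, 23.9 and 21.6 CPM in C4-2, so both targets were lower after knockdown in both lines, and lower by more in C4-2. Markers of prostate luminal epithelium were present in every library: HOXB13 was at 207 to 351 CPM and FOLH1 at 665 to 1172 CPM. Of 12 markers of other cells, COL1A1 (6.96 to 36.3 CPM), VWF (4.95 to 20.8 CPM), SYP (0.583 to 3.42 CPM) and CD68 (0.0549 to 0.551 CPM) were detected in every library, the summed level of all 12 stayed between 26.8 and 48.9 CPM, and PTPRC, COL1A2, DCN, PECAM1, KRT5, KRT14, TP63 and CHGA were each at 0 in at least 1 library. PTPRC was, however, at 3.21, 2.35 and 1.75 CPM in C4-2 siScr vehicle and at most 0.184 CPM in the other groups. KRT14 was at 0 to 0.286 CPM with vehicle and 0.632 to 1.59 CPM in the R1881 groups.

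Promoter sequences are shown first because the best known targets of ATF6 and XBP1 carry short shared elements upstream of their start. The RefSeq promoter table for GRCh38.p14 held 34 of the 37 genes (KDELR2, PDIA3 and SEC24D had no entry), each window running from 250 bases before to 50 bases after a start. The ER stress element, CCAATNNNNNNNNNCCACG, was found on either strand for 7 of the 34 genes (CALR, CANX, CRELD2, HSP90B1, HSPA5, PDIA6 and XBP1) and for 25 of 27305 genes in the whole table, or 0.0916%. The second form, ERSE-II, which is ATTGG and CCACG with 1 base of any kind between them, was found for 3 of the 34 (HERPUD1, HYOU1 and SDF2L1) and for 19 of 27305, or 0.0696%. TGACGTG was found for 4 of the 34 (DNAJC10, HYOU1, KDELR3 and SEC61A1) and for 2.4% of all genes. The 5 letters CCACG, which both stress elements contain, were found for 27 of the 34 and for 42.1% of all genes. A match describes letters in this window and not a bound site. The 250 bases upstream of the start are printed for 7 genes, each of which held an ER stress element or ERSE-II, so they do not stand for the 37. They are given on the gene's own strand, in lower case with the matches to the ER stress element, ERSE-II and TGACGTG in capitals.
HSPA5 (chr9:125241344-125241593, minus strand): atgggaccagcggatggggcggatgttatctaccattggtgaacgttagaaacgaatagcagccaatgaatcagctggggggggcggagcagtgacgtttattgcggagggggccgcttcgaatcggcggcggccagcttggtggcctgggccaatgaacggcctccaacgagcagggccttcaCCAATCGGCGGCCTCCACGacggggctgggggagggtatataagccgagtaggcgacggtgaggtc
HSP90B1 (chr12:103930160-103930409, plus strand): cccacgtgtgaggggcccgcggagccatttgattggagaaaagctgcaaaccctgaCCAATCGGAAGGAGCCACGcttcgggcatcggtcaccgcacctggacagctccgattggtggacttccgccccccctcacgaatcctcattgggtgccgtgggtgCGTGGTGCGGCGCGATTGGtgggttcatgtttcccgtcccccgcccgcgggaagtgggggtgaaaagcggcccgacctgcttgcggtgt
XBP1 (chr22:28800570-28800819, minus strand): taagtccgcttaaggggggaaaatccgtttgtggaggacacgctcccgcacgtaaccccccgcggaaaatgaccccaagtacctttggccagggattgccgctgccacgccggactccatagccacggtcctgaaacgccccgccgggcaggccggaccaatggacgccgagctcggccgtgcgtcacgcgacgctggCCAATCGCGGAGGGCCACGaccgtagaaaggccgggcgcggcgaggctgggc
CRELD2 (chr22:49918384-49918633, plus strand): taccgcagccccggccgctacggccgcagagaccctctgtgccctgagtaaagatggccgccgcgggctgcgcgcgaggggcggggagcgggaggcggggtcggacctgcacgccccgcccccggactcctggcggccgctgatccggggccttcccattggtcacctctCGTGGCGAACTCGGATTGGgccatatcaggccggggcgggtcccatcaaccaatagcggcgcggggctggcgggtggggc
HERPUD1 (chr16:56931892-56932141, plus strand): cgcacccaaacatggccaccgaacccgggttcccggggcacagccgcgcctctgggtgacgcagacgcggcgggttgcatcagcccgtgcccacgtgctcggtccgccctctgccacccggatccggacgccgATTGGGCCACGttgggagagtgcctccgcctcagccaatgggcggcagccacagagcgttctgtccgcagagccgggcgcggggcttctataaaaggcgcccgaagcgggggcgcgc
SDF2L1 (chr22:21642052-21642301, plus strand): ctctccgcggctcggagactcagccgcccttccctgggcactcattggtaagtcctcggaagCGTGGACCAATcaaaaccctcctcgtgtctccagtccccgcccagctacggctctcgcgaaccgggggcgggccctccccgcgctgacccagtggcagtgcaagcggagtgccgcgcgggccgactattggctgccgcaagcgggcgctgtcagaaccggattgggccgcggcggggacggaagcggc
HYOU1 (chr11:119057206-119057455, minus strand): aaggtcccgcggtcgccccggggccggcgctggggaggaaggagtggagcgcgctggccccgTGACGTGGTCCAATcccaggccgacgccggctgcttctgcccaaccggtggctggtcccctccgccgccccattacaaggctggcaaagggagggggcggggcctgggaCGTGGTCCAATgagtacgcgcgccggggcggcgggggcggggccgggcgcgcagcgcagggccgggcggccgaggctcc
HSPA5 held 1 ER stress element, at 66 to 48 bases before its start, and HSP90B1 held 2, one on each strand. HYOU1 held 2 ERSE-II matches on the strand opposite to the gene, and the TGACGTG match at its upstream one shares 4 bases with it.

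The 37 genes covered a wide range of levels. Per kilobase of exon, CALR, a calcium-binding lectin chaperone, was the highest in every group, from 305 CPM per kb in C4-2 siScr vehicle to 616 CPM per kb in LNCaP siKDM R1881. HSP90B1 (GRP94, the HSP90 of the ER lumen) followed at 230.0 to 454 CPM per kb and HSPA5 (BiP, the HSP70 of the ER lumen) at 186 to 345 CPM per kb. In LNCaP the lowest was KDELR3, a receptor that retrieves escaped chaperones from the Golgi, was at 0.822 CPM per kb in siScr vehicle. In C4-2 the lowest were ERN1 and SEC24D, at 2.94 and 3 CPM per kb in siScr vehicle, where KDELR3 was at 4.56 CPM per kb. Together the 37 genes took 0.849 to 0.868% of the counts in LNCaP siScr vehicle, 1.16 to 1.20% in LNCaP siScr R1881 and 1.18 to 1.21% in LNCaP siKDM R1881. In C4-2 the same shares were 0.818 to 0.845%, 0.891 to 0.913% and 1.02 to 1.05%. The vehicle ranges of the lines lay close to each other, the R1881 range was higher in LNCaP, and in C4-2 alone the knockdown range stood clear above the R1881 range, although the difference between those responses is tested only gene by gene below. In a bulk library, fewer cells of a kind and less RNA per cell cannot be told apart.

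**Figure D1:**
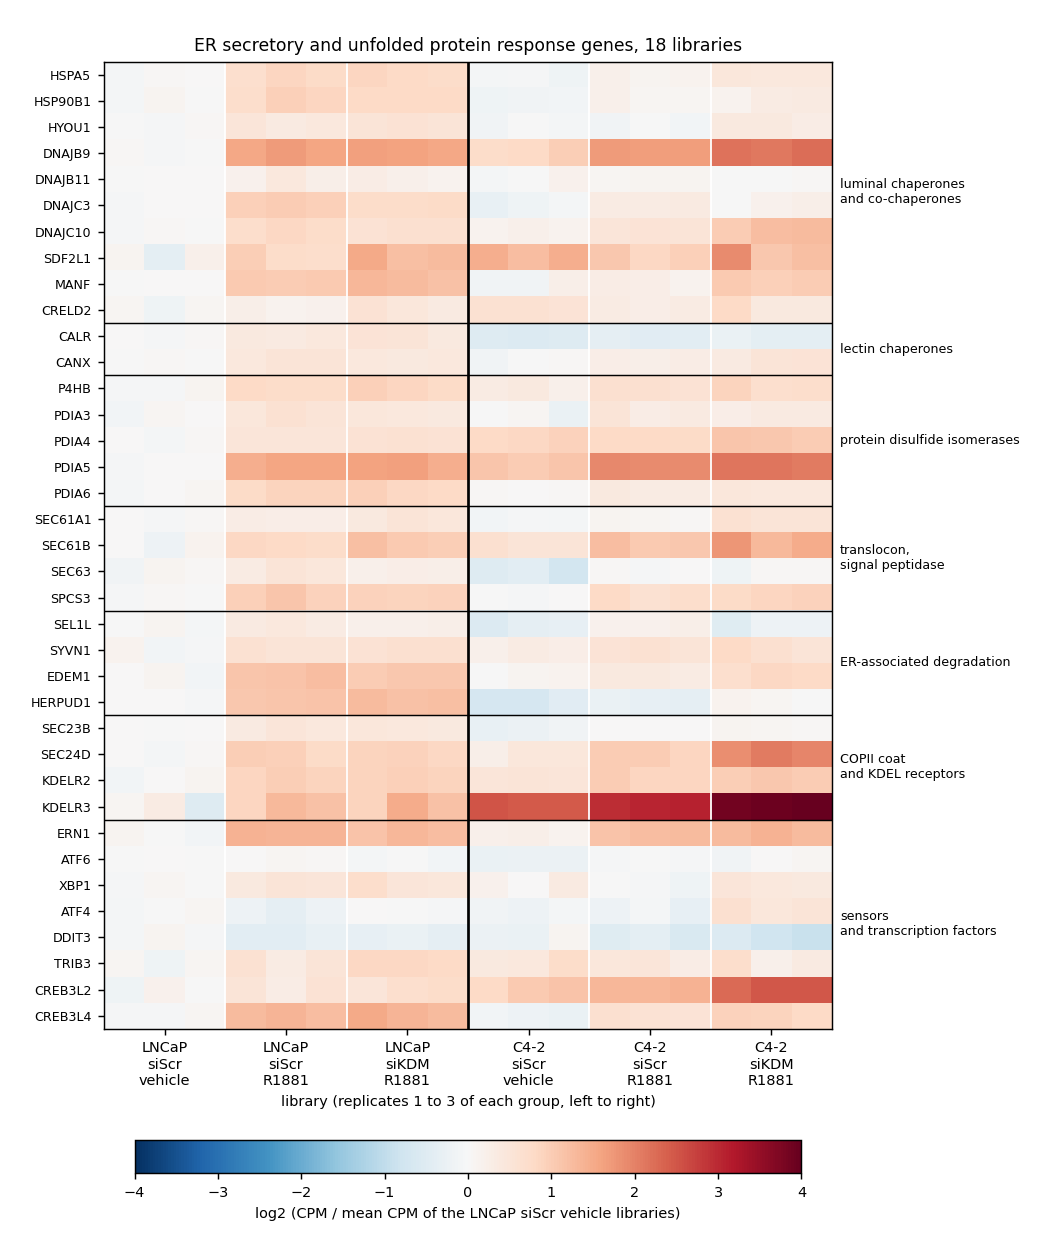
Level of each of the 37 genes (rows, grouped by role) in each of the 18 libraries (columns, replicates 1 to 3 of each group from left to right), as the log2 ratio of its CPM to its mean CPM in the LNCaP siScr vehicle libraries. DNAJB9, PDIA5, ERN1 and CREB3L4 are raised in all R1881 libraries, KDELR3 is raised in all C4-2 libraries, and DDIT3 is lowered in all R1881 libraries. DNAJB9 and PDIA5, and to a small extent ERN1, are also raised in the C4-2 siScr vehicle libraries.

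R1881 raised nearly the whole group in LNCaP. Between siScr R1881 and siScr vehicle, 33 of the 37 genes rose, 2 fell and 2 were not called (edgeR quasi-likelihood test, adjusted p under 0.05), where 23.5% of all 17162 genes tested rose and 23.2% fell. The median log2 fold change of the 37 genes was 0.73, beside a median of -0.04 over all genes tested. The libraries of the 2 groups did not overlap for any of the 37 genes, 35 being higher and 2 lower with R1881, where 27.2% of all genes were higher without overlap and 25.8% lower. With the study's added threshold of a 2-fold change, 8 of the 37 rose, against 5.68% of all genes, and neither of the 2 genes that fell passed it, as 6.62% of all genes did.

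The largest rise was that of DNAJB9 (ERdj4), a co-chaperone that guides unfolded clients to BiP and to degradation. It was at 12.9, 12.2 and 12.4 CPM with vehicle and at 36.7, 40.3 and 37.5 CPM with R1881, a log2 fold change of 1.60 ± 0.08 (SE, adjusted p = 3.26e-11). PDIA5, a disulfide isomerase, was at 23.1, 24.3 and 24 CPM and then at 65.8, 71.2 and 71.3 CPM, a log2 fold change of 1.52 ± 0.07 (SE, adjusted p = 1.89e-11). Every R1881 library of both genes was above every vehicle library by more than the whole spread of either group. EDEM1, which delivers misfolded glycoproteins to degradation, was at 84.3, 89.9 and 77.3 CPM with vehicle and 182, 186 and 197 CPM with R1881 (log2 fold change 1.15 ± 0.06 SE, adjusted p = 1.45e-10). HERPUD1, a membrane scaffold of the degradation complex, was at 79.5, 79.4 and 75.6 CPM with vehicle and 166, 169 and 171 CPM with R1881 (log2 fold change 1.09 ± 0.06 SE, adjusted p = 5.89e-11). The 3 libraries of HERPUD1 differed from each other by less than 6 CPM in either group. MANF, a small protein secreted under ER stress that binds BiP, was at 55.4, 56.4 and 57.3 CPM and then 116, 113 and 118 CPM (log2 fold change 1.02 ± 0.06 SE, adjusted p = 4.91e-10). KDELR3, the least abundant of the genes in LNCaP, was at 1.66, 1.99 and 1.1 CPM and then 2.9, 3.88 and 3.56 CPM (log2 fold change 1.09 ± 0.25 SE, adjusted p = 0.00207). Its groups did not overlap, although the vehicle replicates of this low gene were widely spread.

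By role, 9 of the 10 luminal chaperones and co-chaperones rose, with a median log2 fold change of 0.78. HSPA5 was at 741, 803 and 792 CPM with vehicle and 1234, 1402 and 1314 CPM with R1881, a log2 fold change of 0.74 ± 0.06 (SE, adjusted p = 8.45e-09). CRELD2, a cysteine-rich resident of the lumen, was the exception at 0.17 (adjusted p = 0.127). Both lectin chaperones rose, CALR by 0.37 ± 0.05 and CANX (calnexin) by 0.46 ± 0.05 on the log2 scale. All 5 disulfide isomerases, all 4 genes of the translocon and signal peptidase, all 4 of ER-associated degradation and all 4 of the COPII coat and KDEL receptors rose, with medians of 0.73, 0.60, 0.82 and 0.89. The smallest of these changes was that of SEC61A1, the pore of the translocon, at 0.26 ± 0.05, and SPCS3, a subunit of the signal peptidase, reached 0.98 ± 0.06.

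The sensors and transcription factors were the group with opposite signs: 5 of 8 rose, 2 fell and 1 was not called. ERN1, the kinase and ribonuclease that splices XBP1 mRNA, was at 30.2, 27.9 and 26 CPM with vehicle and 73, 72.2 and 72.3 CPM with R1881 (log2 fold change 1.36 ± 0.07 SE, adjusted p = 1.13e-10). CREB3L4, a membrane-bound transcription factor of the CREB3 family known from prostate epithelium, was at 57.1, 57 and 61.6 CPM and then 142, 149 and 139 CPM (log2 fold change 1.27 ± 0.07 SE, adjusted p = 1.29e-10). XBP1 was at 96.2, 105 and 98.1 CPM and then 132, 144 and 141 CPM (log2 fold change 0.46 ± 0.07 SE, adjusted p = 4.86e-05). In all 3 genes each R1881 library was above each vehicle library. TRIB3, a pseudokinase downstream of ATF4 and CHOP, was at 61.2, 50.9 and 60.9 CPM and then 87.3, 72.5 and 82.1 CPM (log2 fold change 0.47 ± 0.08 SE, adjusted p = 0.000197). CREB3L2, a relative of CREB3L4 that controls COPII genes in other secretory cells, was at 22.4, 28.4 and 24.8 CPM and then 35.7, 31.1 and 37.6 CPM (log2 fold change 0.44 ± 0.10 SE, adjusted p = 0.00149). The 2 genes that fell, ATF4 and DDIT3, both belong to the PERK branch, while TRIB3, downstream of both, rose. ATF4 was at 277, 284 and 309 CPM with vehicle and 254, 225 and 250.4 CPM with R1881 (log2 fold change -0.27 ± 0.06 SE, adjusted p = 0.00179). DDIT3 was at 28.7, 32.2 and 29.1 CPM with vehicle and 22.3, 22.2 and 24.3 CPM with R1881 (log2 fold change -0.41 ± 0.08 SE, adjusted p = 0.000535). ATF6 was at 77.9, 79.7 and 76.7 CPM and 79.8, 82.3 and 80.2 CPM (log2 fold change 0.03 ± 0.06 SE, adjusted p = 0.697), libraries that did not overlap but a difference that did not pass the test. DDIT3 shares 28.0% of its exon bases with MARS1 on the other strand, and the counting was not stated to use strand. All 35 calls were made in each of the 6 fits that left out 1 library of these groups.

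**Figure D2:**
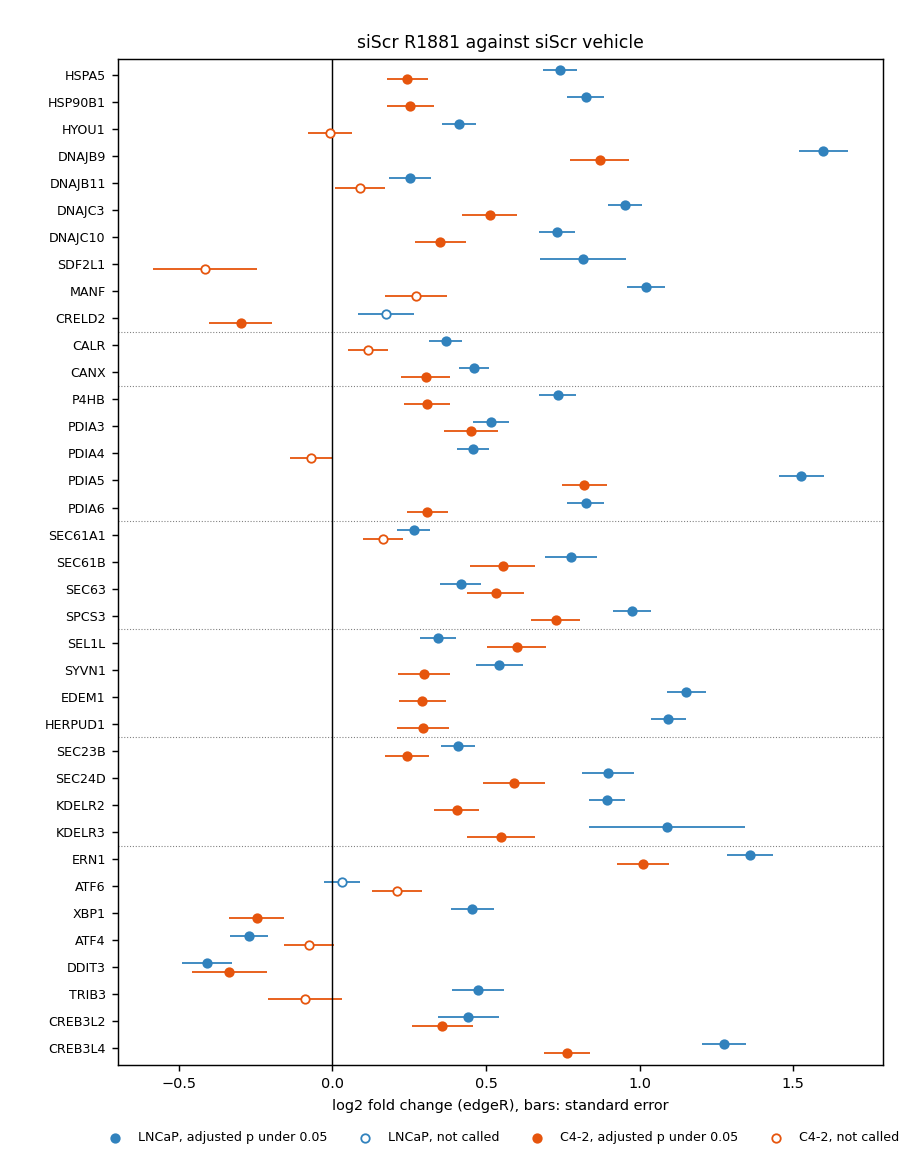
Log2 fold change of each of the 37 genes with R1881 (siScr R1881 against siScr vehicle) in LNCaP (blue) and C4-2 (orange), with its standard error, where filled points passed an adjusted p of 0.05. Most genes lie to the right of 0 in both lines, the LNCaP point lies right of the C4-2 point for 32 of 37 genes, and CRELD2, HYOU1, PDIA4, SDF2L1, TRIB3 and XBP1 lie on opposite sides of 0 in the lines.

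In C4-2 the same addition of R1881 raised 24 of the 37 genes and lowered 3, with 10 not called, where 17.1% of all 16965 genes tested rose and 15.7% fell. The median log2 fold change was 0.30, beside -0.02 over all genes. ERN1 was the single gene past the 2-fold threshold, which 4.29% of all genes passed upwards and 4.78% downwards. It was at 32.1, 32.7 and 31.2 CPM with vehicle and 61.2, 66.5 and 66.9 CPM with R1881 (log2 fold change 1.01 ± 0.09 SE, adjusted p = 4.28e-07). DNAJB9 was at 20.7, 21.6 and 24.8 CPM and then 40.6, 39.8 and 39.8 CPM (log2 fold change 0.87 ± 0.10 SE, adjusted p = 7.22e-06). PDIA5 was at 51.2, 47.9 and 51.9 CPM and then 90.1, 88.4 and 87.6 CPM (log2 fold change 0.82 ± 0.07 SE, adjusted p = 8.11e-07). For these 3 genes the R1881 libraries were all above the vehicle libraries. CREB3L4 was at 54.6, 50.4 and 49.2 CPM and then 90.7, 86.9 and 86.3 CPM (log2 fold change 0.76 ± 0.07 SE, adjusted p = 2e-06). SPCS3 was at 85.3, 83.9 and 87.1 CPM and then 152, 132 and 141 CPM (log2 fold change 0.73 ± 0.08 SE, adjusted p = 7.79e-06). SEL1L, the adaptor that holds the HRD1 ubiquitin ligase complex together, was at 114, 128 and 132 CPM and then 186, 186 and 195 CPM (log2 fold change 0.60 ± 0.10 SE, adjusted p = 0.000228). The R1881 libraries of these 3 were again all above the vehicle libraries. SEC24D, a cargo-binding subunit of the COPII coat, was at 26.9, 31.3 and 31.2 CPM and then 46.2, 46.4 and 41.2 CPM (log2 fold change 0.59 ± 0.10 SE, adjusted p = 0.000413). SEC61B, a small subunit of the translocon, was at 74.7, 67.6 and 67.6 CPM and then 112, 97.8 and 100.2 CPM (log2 fold change 0.55 ± 0.10 SE, adjusted p = 0.000945), and neither gene had overlapping groups.

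By role, 5 of 10 luminal chaperones and co-chaperones rose in C4-2 and 1 fell, 4 of 5 disulfide isomerases rose, and all 4 genes of ER-associated degradation and all 4 of the COPII coat and KDEL receptors rose. Of the 27 calls in C4-2, 18 were made in all 6 fits that left out 1 library. Among the rises, the calls of HSP90B1, SYVN1, EDEM1, HERPUD1, SEC23B and CREB3L2 were all lost without C4-2 siScr vehicle replicate 1. HSPA5 was at 744, 748 and 693 CPM with vehicle and 905, 842 and 849 CPM with R1881 (log2 fold change 0.24 ± 0.07 SE, adjusted p = 0.0106). Of the sensors and transcription factors, ERN1, CREB3L4 and CREB3L2 rose and XBP1 and DDIT3 fell. CREB3L2 was at 44, 52.6 and 55.1 CPM and then 63.5, 62.9 and 66.2 CPM (log2 fold change 0.36 ± 0.10 SE, adjusted p = 0.013). ATF6 was at 64.7, 66.3 and 66.1 CPM and then 74.9, 77.3 and 76.4 CPM (log2 fold change 0.21 ± 0.08 SE, adjusted p = 0.0599). The libraries of CREB3L2 and ATF6 were separate, and the second did not pass the test. ATF4 was at 266, 254 and 277 CPM and then 254, 274 and 229.6 CPM (log2 fold change -0.08 ± 0.08 SE, adjusted p = 0.525), with overlapping groups. TRIB3 was at 75.8, 76.9 and 96.1 CPM and then 79.1, 81.3 and 70.7 CPM (log2 fold change -0.09 ± 0.12 SE, adjusted p = 0.615), also overlapping.

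The 3 genes that fell in C4-2 did so near the threshold. XBP1 was at 111, 100.3 and 128 CPM with vehicle and 99.2, 95.8 and 89.1 CPM with R1881 (log2 fold change -0.25 ± 0.09 SE, adjusted p = 0.0474). DDIT3 was at 25.7, 25.1 and 32 CPM and then 21.6, 22.8 and 19.8 CPM (log2 fold change -0.34 ± 0.12 SE, adjusted p = 0.049). CRELD2 was at 52, 51.6 and 49.8 CPM and then 42.8, 40.6 and 42 CPM (log2 fold change -0.30 ± 0.10 SE, adjusted p = 0.0387). The vehicle and R1881 libraries of all 3 did not overlap, as was so for 22.3% of all genes in that direction. Leaving out 1 library at a time, DDIT3 was called in 0 of 6 fits (adjusted p 0.055 to 0.174), CRELD2 in 1 of 6 (0.041 to 0.135) and XBP1 in 1 of 6 (0.0174 to 0.189). The count of genes that fell was 1 without C4-2 siScr vehicle replicate 2 or the shallow replicate 3 and 0 without any one of the other 4 libraries. Without the shallow replicate 3, which stood apart from its group, 25 genes rose.

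The log2 fold change with R1881 was lower in C4-2 than in LNCaP for 21 of the 37 genes and higher for 0 (interaction term in 1 fit of all 18 libraries, adjusted p under 0.05), where 7.95% of all 18684 genes tested had a lower value in C4-2 and 6.05% a higher one. A lower value is not always a change of smaller size: CRELD2 was at 0.17 in LNCaP (not called) and -0.30 in C4-2 (called). At an unadjusted p under 0.05, which 4948 of all 18684 genes passed in either direction, the value was higher in C4-2 for 1 of the 37 genes and lower for 26. DESeq2 also called 0 higher. Without C4-2 siScr vehicle replicate 3 the counts were again 21 lower and 0 higher. The median difference of responses was -0.43 for the 37 genes and 0.00 for all genes. The androgen-induced genes TMPRSS2 and FKBP5 had differences of -1.04 and -0.99 in the same fit, while KLK3 had 0.44, and the part of this in the genes described here was not tested. The luminal chaperones and co-chaperones had the most calls, 9 of 10, followed by 4 of 5 disulfide isomerases and 4 of 8 sensors and transcription factors, while the 4 genes of the translocon and signal peptidase lay between -0.26 and 0.10 and did not pass the test.

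SDF2L1, a partner of the DNAJ co-chaperones that keeps clients soluble, differed the most, by -1.24 ± 0.25 (SE, adjusted p = 0.00153), and was the single gene whose response differed by 2-fold, as 2.33% of all genes did in that direction. It was at 14.3, 9.93 and 15.1 CPM with vehicle and 25.7, 22 and 21.4 CPM with R1881 in LNCaP. In C4-2 it was at 35.9, 30.8 and 35.5 CPM and 27.9, 23.4 and 25.2 CPM, so that R1881 raised it in LNCaP, while its change in C4-2 was -0.41 ± 0.17 with R1881 libraries all below the vehicle libraries (adjusted p = 0.0767). EDEM1 differed by -0.87 ± 0.09 (SE, adjusted p = 7.83e-07), and was at 83.7, 91.1 and 91.5 CPM with vehicle and 110.2, 109.7 and 106 CPM with R1881 in C4-2. HERPUD1 differed by -0.81 ± 0.09 (SE, adjusted p = 2.68e-06), and was at 49, 48.6 and 57.7 CPM and 65.1, 62.2 and 61 CPM in C4-2. MANF differed by -0.75 ± 0.11 (SE, adjusted p = 6.91e-05), and was at 50.7, 50.8 and 66.4 CPM and 69.2, 67.8 and 61.6 CPM in C4-2, where its groups overlapped. DNAJB9 differed by -0.74 ± 0.11 (SE, adjusted p = 6.9e-05) and PDIA5 by -0.72 ± 0.09 (SE, adjusted p = 1.21e-05), both rising in each line. XBP1, with -0.71 ± 0.11 (SE, adjusted p = 0.000155), rose in LNCaP and fell in C4-2. The value was called lower in C4-2 for HSPA5 (-0.51) and ERN1 (-0.36). The difference was not called in either direction for ATF6, ATF4, DDIT3 or CREB3L2. Of the 8 sensors and transcription factors, 3 had a higher value in C4-2, up to 0.18, and 5 a lower one. ERN1 was called in 8 of the 12 fits that left out 1 library (adjusted p 0.0174 to 0.0642), TRIB3 in 9 (0.012 to 0.0594), CALR in 8 (0.0218 to 0.0574) and CRELD2 in 7 (0.0216 to 0.0831), and all 6 genes with the largest differences were called in all 12.

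The genes that carry an exact stress element can be read against these values as a description. Of the 7 with an ER stress element, 6 rose with R1881 in LNCaP (median log2 fold change 0.46), and in C4-2 4 rose and 2 fell (median 0.24). Of the 3 with ERSE-II, all 3 rose in LNCaP, from 0.41 for HYOU1 to 1.09 for HERPUD1, while in C4-2 HERPUD1 rose, SDF2L1 was at -0.41 and HYOU1 at -0.01. The difference between the lines was called lower for all 3 and for 6 of the 7, with CANX the exception. Over all 37 genes, with or without an element, 33 rose in LNCaP, 24 rose and 3 fell in C4-2, and 21 had a lower value in C4-2. Whether genes with an element differed from the rest was not tested. The 2 genes with the largest rise in LNCaP, DNAJB9 and PDIA5, held neither element in these windows.

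**Figure D3:**
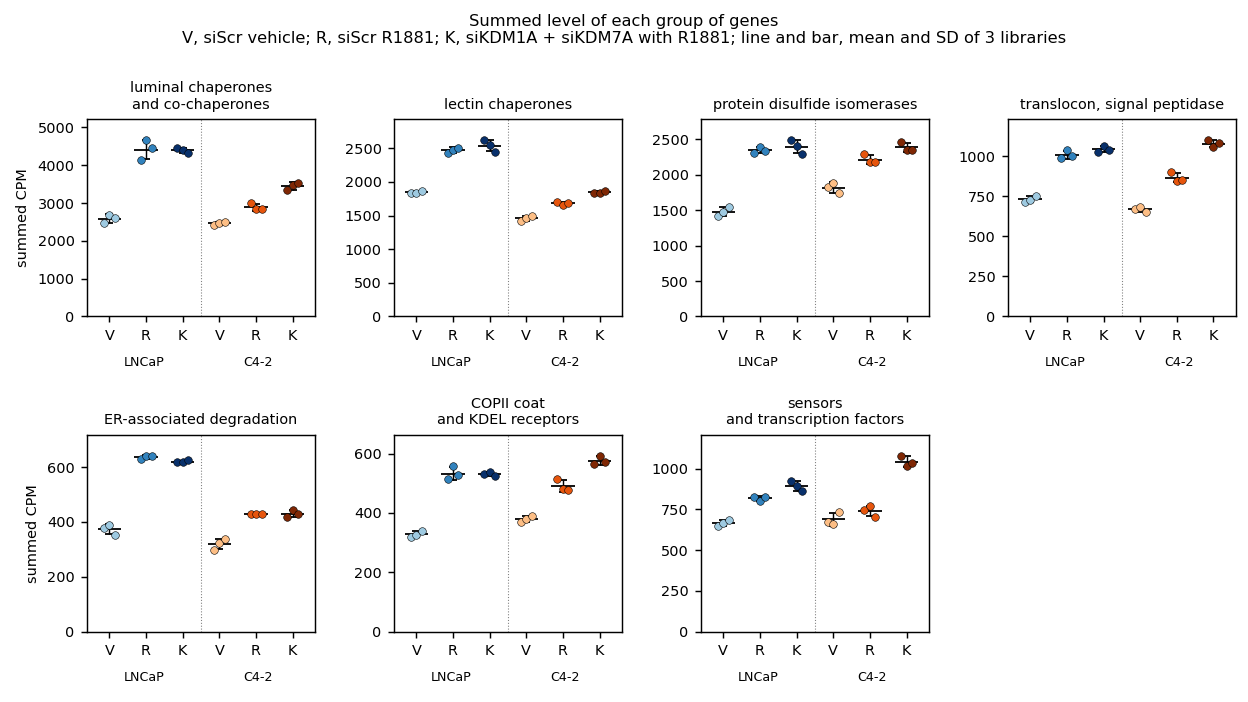
Summed CPM of the genes of each role in each library, with the mean and SD of the 3 libraries of a group. In LNCaP the siScr R1881 libraries lie above the vehicle libraries in all 7 panels and in C4-2 the siKDM R1881 libraries lie above the siScr R1881 libraries in every panel except ER-associated degradation.

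Knockdown of both demethylases in the presence of R1881 changed few of these genes in LNCaP. Between siKDM R1881 and siScr R1881, 7 of the 37 rose, 1 fell and 29 were not called, where 8.27% of all genes rose and 5.89% fell, and the largest change stayed below 2-fold. The median log2 fold change was 0.06, beside 0.00 over all genes. This comparison shares the siScr R1881 libraries with the one against vehicle. SDF2L1 had the largest change, from 25.7, 22 and 21.4 CPM to 37.6, 30.2 and 31.7 CPM (log2 fold change 0.54 ± 0.13 SE, adjusted p = 0.0127). TRIB3 rose from 87.3, 72.5 and 82.1 CPM to 102, 103 and 99.6 CPM (log2 fold change 0.35 ± 0.08 SE, adjusted p = 0.0118). ATF4 rose from 254, 225 and 250.4 CPM to 296, 288 and 284 CPM (log2 fold change 0.27 ± 0.06 SE, adjusted p = 0.0113), within the range of its vehicle libraries. All 3 of these genes were higher in each knockdown library than in each siScr R1881 library. SEC61B rose from 85, 82.1 and 79.8 CPM to 109, 97.5 and 94 CPM (log2 fold change 0.30 ± 0.08 SE, adjusted p = 0.0223). CRELD2 rose from 39.9, 37.1 and 38 CPM to 50.8, 46.6 and 42.9 CPM (log2 fold change 0.30 ± 0.09 SE, adjusted p = 0.0328). MANF rose from 116, 113 and 118 CPM to 143, 135 and 128 CPM (log2 fold change 0.24 ± 0.06 SE, adjusted p = 0.0152). These 3 genes, a translocon subunit and 2 small luminal proteins, had replicates within a few CPM of each other before knockdown. The change of SEC61A1 was the smallest of the rises, from 494, 491 and 490.0 CPM to 532, 575 and 553 CPM (log2 fold change 0.19 ± 0.05 SE, adjusted p = 0.0261). DNAJC3 (p58IPK), a co-chaperone that also restrains PERK, fell from 164, 173 and 164 CPM to 143, 143 and 147 CPM (log2 fold change -0.20 ± 0.05 SE, adjusted p = 0.0247). The groups of these 8 genes did not overlap, which held for 16% of all genes upwards and 18.5% downwards and, with the genes that were not called, for 10 and 8 of the 37.

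None of these 8 calls was made in all 6 fits that left out 1 library. Without LNCaP siScr R1881 replicate 2, 0 genes rose and 0 fell, and without siScr R1881 replicate 3, siKDM R1881 replicate 1 or siKDM R1881 replicate 2, 2 rose and 0 fell. Without siScr R1881 replicate 1, 8 rose and 2 fell. With the trend of each library with GC content removed, 3 genes rose (MANF, SEC61B and HERPUD1) and 0 fell. The other sensors and transcription factors were not called in LNCaP. ERN1 was at 62.2, 70 and 65.6 CPM after knockdown (log2 fold change -0.12 ± 0.07 SE, adjusted p = 0.285) and XBP1 at 161, 139 and 135 CPM (log2 fold change 0.09 ± 0.07 SE, adjusted p = 0.456). ATF6 was at 73.9, 76.6 and 72.1 CPM (log2 fold change -0.10 ± 0.06 SE, adjusted p = 0.264) and DDIT3 at 24, 25.1 and 23.2 CPM (log2 fold change 0.09 ± 0.08 SE, adjusted p = 0.521). CREB3L2 was at 35.4, 40.2 and 41.8 CPM (log2 fold change 0.19 ± 0.10 SE, adjusted p = 0.214) and CREB3L4 at 167, 149 and 141 CPM (log2 fold change 0.10 ± 0.07 SE, adjusted p = 0.334). HSPA5 was at 1398, 1352 and 1299.6 CPM (log2 fold change 0.06 ± 0.06 SE, adjusted p = 0.558), and its groups overlapped. The knockdown libraries of ERN1 and ATF6 lay below the siScr R1881 libraries without a call.

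**Figure D4:**
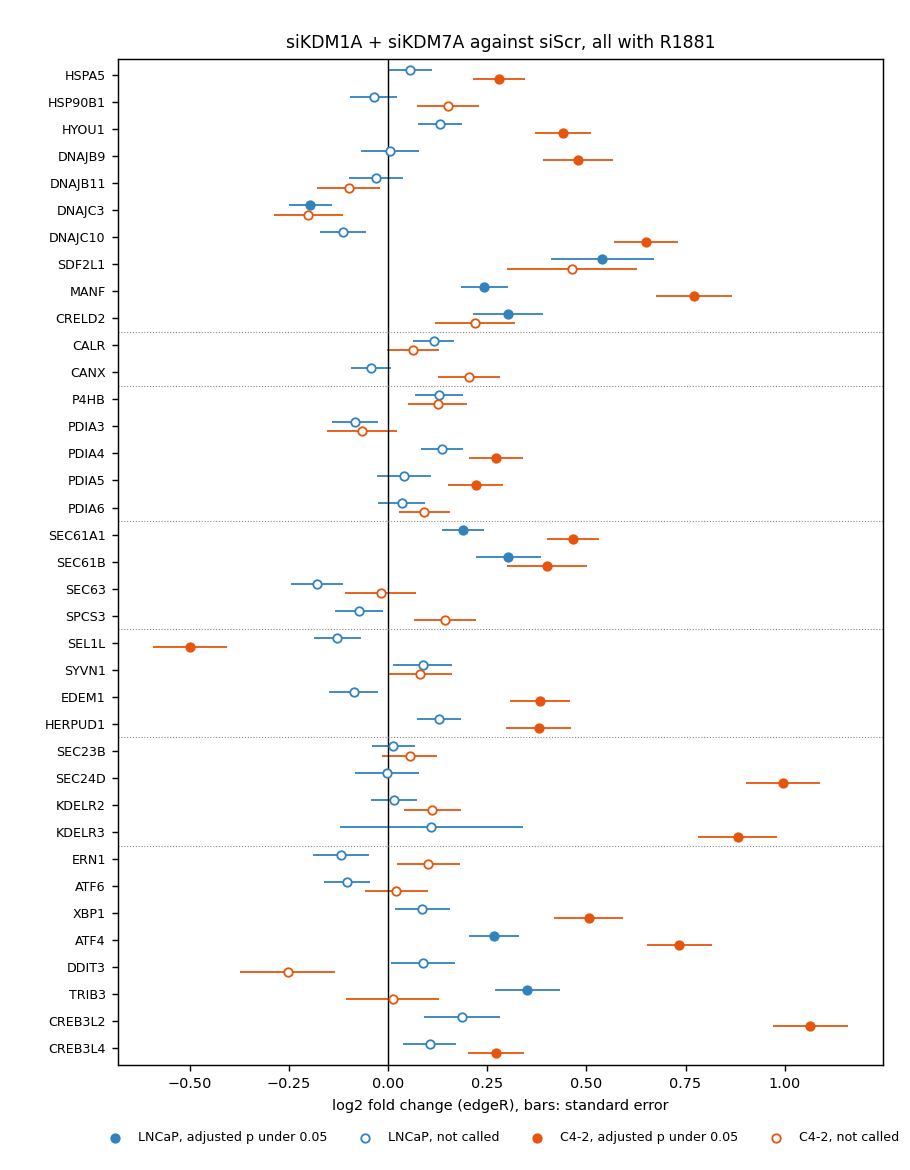
Log2 fold change of each of the 37 genes after knockdown of KDM1A and KDM7A (siKDM R1881 against siScr R1881) in LNCaP (blue) and C4-2 (orange), with its standard error, where filled points passed an adjusted p of 0.05. LNCaP points lie between -0.20 and 0.54, and in C4-2 CREB3L2, SEC24D, KDELR3, MANF, ATF4 and DNAJC10 lie between 0.65 and 1.06 while SEL1L lies at -0.50.

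In C4-2 the knockdown raised 17 of the 37 genes and lowered 1, with 19 not called, where 12.7% of all genes rose and 10.8% fell. The median log2 fold change was 0.22, beside 0.01 over all genes. As in LNCaP, the siScr R1881 libraries also enter the comparison against vehicle, there with the opposite sign. CREB3L2 was the single gene past 2-fold, which 2.5% of all genes passed upwards. It was at 63.5, 62.9 and 66.2 CPM in siScr R1881 and 122, 140.2 and 142 CPM after knockdown (log2 fold change 1.06 ± 0.10 SE, adjusted p = 4.76e-06). SEC24D was at 46.2, 46.4 and 41.2 CPM and then 82.8, 96.9 and 87.9 CPM, a log2 fold change of 0.995 ± 0.09 (SE, adjusted p = 7.91e-06) that stopped just short of 2-fold. KDELR3 was at 12.4, 13 and 13.3 CPM and then 22.9, 23.9 and 24.9 CPM (log2 fold change 0.88 ± 0.10 SE, adjusted p = 3.21e-05). In all 3 the knockdown libraries were far above the R1881 libraries relative to their spread. MANF was at 69.2, 67.8 and 61.6 CPM and then 117, 109.5 and 114 CPM (log2 fold change 0.77 ± 0.10 SE, adjusted p = 6.95e-05). ATF4 was at 254, 274 and 229.6 CPM and then 454, 396 and 415 CPM (log2 fold change 0.73 ± 0.08 SE, adjusted p = 2.71e-05). DNAJC10 (ERdj5), a reductase of the lumen that acts in degradation, was at 132, 136 and 132 CPM and then 189, 218 and 223 CPM (log2 fold change 0.65 ± 0.08 SE, adjusted p = 6.63e-05). All 3 were higher in each knockdown library. XBP1 was at 99.2, 95.8 and 89.1 CPM and then 140.1, 133 and 131 CPM (log2 fold change 0.51 ± 0.09 SE, adjusted p = 0.000872). SEL1L was the gene that fell, from 186, 186 and 195 CPM to 117, 143 and 143 CPM (log2 fold change -0.50 ± 0.09 SE, adjusted p = 0.00156). These 8 calls were made in all 6 fits that left out 1 library, in which the count of genes that rose ran from 13 to 19. Without C4-2 siKDM R1881 replicate 1, which stood apart from its group, 19 rose and 2 fell, the second being DDIT3.

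By role, the knockdown in C4-2 raised 5 of 10 luminal chaperones and co-chaperones, neither lectin chaperone, 2 of 5 disulfide isomerases, 2 of 4 genes of the translocon and signal peptidase, 2 of 4 of ER-associated degradation, 2 of 4 of the COPII coat and KDEL receptors and 4 of 8 sensors and transcription factors. HSPA5 was at 1066, 1047 and 1050.5 CPM after knockdown (log2 fold change 0.28 ± 0.07 SE, adjusted p = 0.00654). EDEM1 and HERPUD1 rose by 0.38 ± 0.07 and 0.38 ± 0.08 on the log2 scale, in the list in which SEL1L fell and the ubiquitin ligase SYVN1 (HRD1) was at 0.08 ± 0.08 (adjusted p = 0.527). CREB3L4 was at 110.3, 108 and 102 CPM (log2 fold change 0.27 ± 0.07 SE, adjusted p = 0.0123). ERN1 was at 67.2, 74.3 and 67.8 CPM (log2 fold change 0.10 ± 0.08 SE, adjusted p = 0.399) and ATF6 at 71.2, 79 and 82.5 CPM (log2 fold change 0.02 ± 0.08 SE, adjusted p = 0.884), so of the 2 sensors neither was called. ATF4 rose, while of the genes named above DDIT3 and TRIB3 did not pass the test: DDIT3 was at 20.7, 17.4 and 16 CPM (log2 fold change -0.25 ± 0.12 SE, adjusted p = 0.151) and TRIB3 at 93.1, 66.5 and 74.5 CPM (log2 fold change 0.01 ± 0.12 SE, adjusted p = 0.961).

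The log2 fold change with knockdown was higher in C4-2 than in LNCaP for 12 of the 37 genes and lower for 1, where it was higher for 6.97% of all genes and lower for 3.88%. The median difference was 0.19, beside 0.01 over all genes. The siScr R1881 libraries of both lines enter this difference and that of the R1881 responses with opposite signs. The 2 sets of calls are therefore not independent. The knockdown itself was deeper in C4-2, with differences of -2.04 ± 0.12 for KDM1A and -1.56 ± 0.14 for KDM7A on the log2 scale, and the part of that depth in these responses was not tested. SEC24D differed by 1.02 ± 0.12 (SE, adjusted p = 1.14e-05), being at 45.5, 44.5 and 38.4 CPM in LNCaP siScr R1881 and 42.5, 43.5 and 40.4 CPM after knockdown there. CREB3L2 differed by 0.90 ± 0.14 (SE, adjusted p = 0.00021). DNAJC10 differed by 0.79 ± 0.09 (SE, adjusted p = 1.14e-05), having moved from 150.2, 166 and 154 CPM to 138, 146 and 145 CPM in LNCaP. All 3 rose in C4-2 and were not called in LNCaP. KDELR3 differed by 0.79 ± 0.22 (SE, adjusted p = 0.0263), with 2.92, 4.44 and 3.57 CPM in LNCaP after knockdown, and was called in 4 of the 12 fits that left out 1 library (adjusted p 0.0146 to 0.082). MANF and DNAJB9 differed by 0.55 ± 0.11 and 0.50 ± 0.10, both called in all 12. The gene with the lower value was SEL1L, whose fall was deeper in C4-2 (-0.50, called) than in LNCaP (-0.13, not called). It differed by -0.35 ± 0.11 (SE, adjusted p = 0.0365) and was called in 2 of the 12 fits (adjusted p 0.0407 to 0.116), those without C4-2 siKDM R1881 replicate 2 or 3. CANX, with a difference of 0.27, was also called in 2 of the 12 fits (adjusted p 0.00381 to 0.142), and its call was lost with RLE factors, no filter and the GC trend removed. Without C4-2 siKDM R1881 replicate 1, the library that stood apart from its group, 16 genes were higher and 2, DDIT3 and TRIB3, were lower. For TRIB3 the response was 0.35 in LNCaP and 0.01 in C4-2, and the difference did not pass the test (adjusted p = 0.206).

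**Figure D5:**
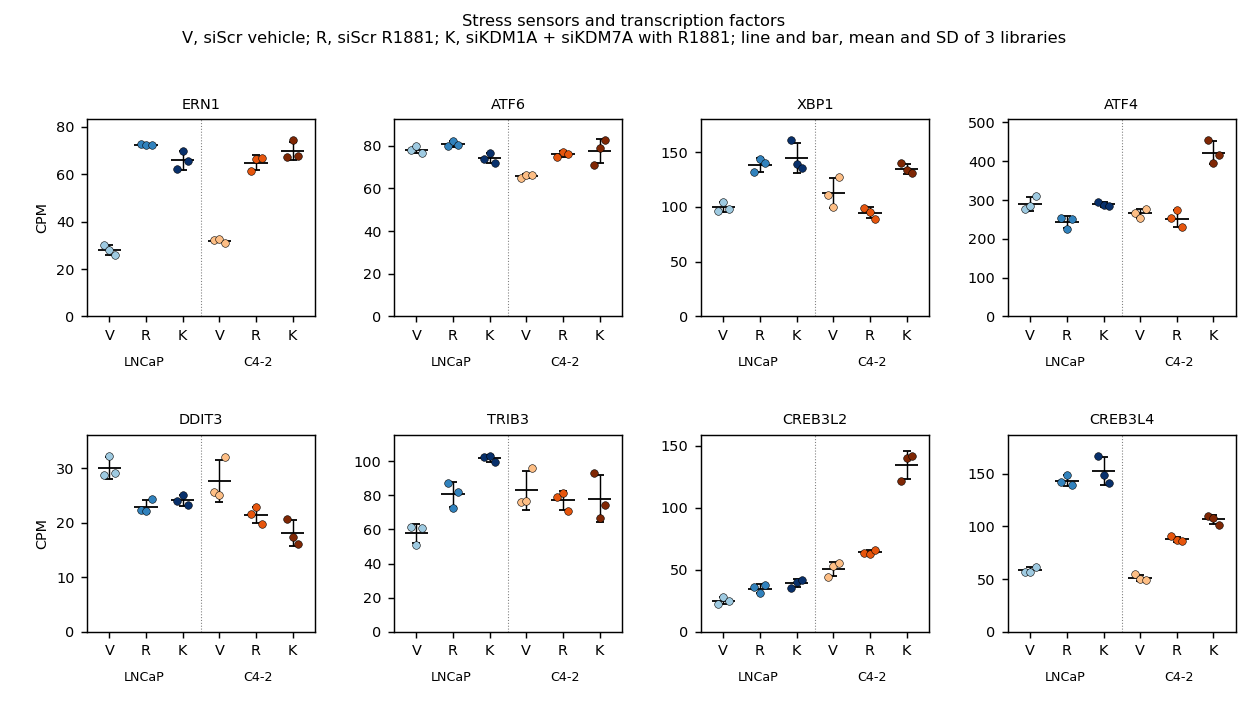
CPM of the 8 stress sensors and transcription factors in each library of the 6 groups, with the mean and SD of 3 libraries. ERN1 and CREB3L4 are higher in the R1881 groups of both lines, ATF4 and CREB3L2 are highest in C4-2 siKDM R1881, and ATF6 stays between 64.7 and 82.5 CPM in all 18 libraries.

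Between the lines with vehicle, the 37 genes went both ways: 15 were higher in C4-2, 8 were lower and 14 were not called. Of all genes, 29.4% were higher and 29.5% lower (58.9% in either direction). The difference was above 0 for 19 of the 37 and below 0 for 18. Whether the split of calls departed from the shares of all genes was not tested. The median difference was 0.00. Line, culture and the handling of that line cannot be told apart in this comparison, and removing each library's trend with GC content moved the members' median to 0.16 and the calls to 21 higher and 8 lower. Without C4-2 siScr vehicle replicate 3, 14 were higher and 8 lower. KDELR3 was higher in C4-2 by 2.46 ± 0.19 (SE, adjusted p = 2.98e-10) on the log2 scale, and SDF2L1 by 1.38 ± 0.18 (SE, adjusted p = 1.25e-06). PDIA5 was higher by 1.07 ± 0.07 (SE, adjusted p = 2.51e-11), CREB3L2 by 0.98 ± 0.10, PDIA4 by 0.86 ± 0.05 and DNAJB9 by 0.81 ± 0.08. The vehicle libraries of the lines did not overlap in any of these 6 genes, which held upwards for 15 of the 37 and for 30% of all genes. The vehicle level of PDIA4, a disulfide isomerase, was 262, 249 and 271 CPM in LNCaP and 455, 465 and 497 CPM in C4-2. Of the genes lower in C4-2, HERPUD1 had the largest difference at -0.62 ± 0.07.

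With R1881 the balance lay the other way, with 5 genes higher in C4-2, 19 lower and 13 not called, where 28.6% of all genes were higher and 29.7% lower (58.3% in either direction). The median difference was -0.17 for the 37 genes and -0.01 for all genes. The R1881 libraries of this comparison also enter the R1881 response of each line. KDELR3 was still higher in C4-2, by 1.91 ± 0.16 (SE, adjusted p = 1.34e-09), and CREB3L2 by 0.88 ± 0.10 (SE, adjusted p = 1.04e-07). The difference was -1.43 ± 0.07 (SE, adjusted p = 5.76e-14) for HERPUD1, -0.81 ± 0.08 (SE, adjusted p = 1.2e-08) for MANF, -0.80 ± 0.05 (SE, adjusted p = 5.04e-11) for CALR and -0.79 ± 0.06 (SE, adjusted p = 7.96e-10) for EDEM1, all lower in C4-2. CALR was at 1561, 1544 and 1590.4 CPM in LNCaP siScr R1881 and 930.1, 883 and 889 CPM in C4-2 siScr R1881, and its vehicle libraries, at 1200.1, 1168 and 1226 CPM and 832, 822 and 829 CPM, were lower in C4-2 as well (-0.53). DNAJB9, higher in C4-2 with vehicle, was at 0.07 with R1881 (adjusted p = 0.408).

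Other genes of the pathway, from lists that share no gene with the 37, are given for comparison. Of all genes tested, 23.5% rose and 23.2% fell with R1881 in LNCaP, and 17.1% rose and 15.7% fell in C4-2. With R1881 in LNCaP, 12 of 14 further genes of the translocon, signal recognition and signal peptidase rose and 1 fell, with SEC11C, a catalytic subunit of the signal peptidase, at 1.32 ± 0.08. Of 12 subunits of the oligosaccharyltransferase, which glycosylates proteins as they enter, 10 rose, RPN1 by 0.71 ± 0.06. Of 18 genes of oxidative folding and glycoprotein quality control, 13 rose, ERO1A, the oxidase that recharges the disulfide isomerases, by 1.44 ± 0.09. Of 20 further genes of ER-associated degradation, 13 rose and 1 fell, with the ubiquitin-conjugating enzyme UBE2J1 at 1.73 ± 0.07 and the mannosidase EDEM3 at 1.62 ± 0.06. Of 22 genes of COPII transport and retrieval, 18 rose, with the COPII GTPase SAR1B at 1.31 ± 0.06. In C4-2 the counts that rose in these 5 lists were 10, 9, 7, 9 and 12, with 0, 0, 1, 1 and 0 that fell. In the same order, the log2 fold change with R1881 was called lower in C4-2 for 1, 3, 5, 7 and 4 genes. It was called higher for 1, 0, 0, 0 and 0. Of all genes tested, 7.95% were lower and 6.05% higher. In the list of ER-associated degradation, 1 gene was lower by at least 2-fold. Of the genes named, SAR1B was lower, with a difference of -0.79 ± 0.09 (SE, adjusted p = 3.63e-06), and so was UBE2J1, with -0.79 ± 0.11 (SE, adjusted p = 3.57e-05).

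Of 8 further sensors, proteases and CREB3 relatives, 5 were tested. With R1881 in LNCaP 2 rose and 1 fell, and in C4-2 1 rose, MBTPS2, a protease that cuts ATF6, by 0.35 ± 0.08. After knockdown in C4-2, 3 rose and 1 fell, where 12.7% of all genes rose and 10.8% fell. The largest rise was that of EIF2AK3, which encodes PERK, at 0.69 ± 0.10 (SE, adjusted p = 0.000268). This log2 fold change was higher than in LNCaP by 0.72 ± 0.11 (SE, adjusted p = 0.000239). In LNCaP none of the 5 was called, the lowest unadjusted p being 0.0125 for MBTPS2 and 0.0201 for CREB3. Of 21 targets of the integrated stress response, the programme that PERK and ATF4 drive, 9 rose and 7 fell with R1881 in LNCaP and 4 rose and 6 fell in C4-2. The shares of all genes that rose and fell were 23.5% and 23.2% in LNCaP and 17.1% and 15.7% in C4-2. The largest changes of the 21 targets with R1881 were ATF3 in LNCaP (1.15 ± 0.08) and VLDLR in C4-2 (0.93 ± 0.11). After knockdown 11 of these 21 rose and 1 fell in C4-2, with CHAC1 at 0.87 ± 0.16 (SE, adjusted p = 0.00137) and VLDLR, the gene that fell, at -0.79 ± 0.10 (SE, adjusted p = 8.73e-05). In LNCaP 7 rose and 1 fell after knockdown, where 8.27% of all genes rose and 5.89% fell. CEBPB was at 0.67 ± 0.14 (SE, adjusted p = 0.00602) and CHAC1 at 0.63 ± 0.16 (SE, adjusted p = 0.0166) there. The log2 fold change of ASNS, asparagine synthetase, was higher in C4-2 by 0.60 ± 0.11 (SE, adjusted p = 0.00128), and that of SLC7A11, a cystine transporter, by 0.67 ± 0.13 (SE, adjusted p = 0.00209).

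Outside the ER, of 18 cytosolic and mitochondrial chaperones, 10 rose and 0 fell with R1881 in LNCaP, where 23.5% of all genes rose and 23.2% fell. Their median log2 fold change was 0.16. In C4-2 11 of the 18 rose and 2 fell, with a median of 0.22, where 17.1% of all genes rose and 15.7% fell. 1 of the 2 that fell in C4-2, HSPA1A, an inducible HSP70 nearly identical to HSPA1B so that reads may be split between them, was at 0.569, 0.515 and 12.8 CPM with vehicle and 0.495, 0.169 and 0.551 CPM with R1881, so that its call rests on the shallow vehicle replicate 3. HSPE1, the mitochondrial co-chaperonin, was at 0.49 ± 0.10 in LNCaP and 0.68 ± 0.15 in C4-2. After knockdown 1 of the 18 rose and 3 fell in LNCaP, where 8.27% of all genes rose and 5.89% fell. In C4-2 3 of the 18 rose and 1 fell after knockdown, where 12.7% of all genes rose and 10.8% fell. HSPB1, a small heat shock protein, rose after knockdown in both lines, by 0.81 ± 0.11 (SE, adjusted p = 0.00109) in LNCaP and 1.36 ± 0.16 (SE, adjusted p = 4.23e-05) in C4-2.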

How the data were processed

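RNA-seq of 18 libraries of LNCaP and C4-2 cells was analysed from gene counts. Per the file headers, the authors counted paired-end fragments per Ensembl gene with featureCounts 1.5.0-p1 (GRCh38, Ensembl release 83) and deposited raw counts. The labels also name Trim Galore, cutadapt, FastQC and STAR. Strand was not stated in the counting, so reads of overlapping or antisense genes cannot be told apart. Exon bases shared with other genes made up 28.0% in DDIT3, 25.2% in PDIA6, 18.9% in PDIA3, 14.7% in DNAJB11, 14.3% in PDIA5 and 12.9% in CREB3L4, and in SYVN1 6.48% on the opposite strand and 8.39% on the same strand.

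The 37 genes and the lists compared with them were chosen with earlier results of these data known. Counts were filtered with filterByExpr (minimum count 10, minimum total 15), scaled by TMM and tested with the quasi-likelihood F-test of edgeR 4.0.16 in R 4.3.3, with Benjamini-Hochberg adjustment over all genes tested. Each line was fitted alone with its 9 libraries for R1881 and knockdown, and all 18 libraries together for differences between lines and between responses. A gene was called at an adjusted p under 0.05, and the study's 2-fold limit was given beside it. The genes named were the stress sensors, their transcription factors and HSPA5, then for each comparison within a line up to 8 called genes with the largest changes and no overlap between libraries, up to 6 for each comparison between lines, and up to 2 for each further list. Tests were checked on simulated counts in which all genes had the same spread and no library stood apart. That check does not cover spread that varies by gene or libraries that stand apart. Alternatives were RLE factors, DESeq2 1.42.0, no filter, a mean of at least 1 CPM, a replicate block, removal of the trend with GC content, a fit of only the groups compared, and leaving out each library. Replicates of a group differed by more than sampling noise (chi-square per gene of at least 2.41), and C4-2 siScr vehicle replicate 3 and C4-2 siKDM R1881 replicate 1 stood apart from their groups. Libraries held 3182604 to 20154243 counts in genes, so low genes are least precise in the shallow C4-2 siScr vehicle replicate 3.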

Additional observations from a re-analysis of the deposited data

Results flagged for a closer look

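The log2 fold change with R1881 was lower in C4-2 than in LNCaP for 21 of the 37 genes, by the interaction test over all 18 libraries (edgeR, adjusted p under 0.05). Differences are on the log2 scale, C4-2 minus LNCaP. Among the luminal chaperones and co-chaperones, the difference was -0.51 for HSPA5, -0.58 for HSP90B1, -0.43 for HYOU1, -0.74 for DNAJB9, -0.45 for DNAJC3, -0.40 for DNAJC10, -1.24 for SDF2L1, -0.75 for MANF and -0.49 for CRELD2. Among the lectin chaperones, the difference was -0.26 for CALR. Among the protein disulfide isomerases, the difference was -0.44 for P4HB, -0.54 for PDIA4, -0.72 for PDIA5 and -0.53 for PDIA6. Among the genes of ER-associated degradation, the difference was -0.87 for EDEM1 and -0.81 for HERPUD1. Among the COPII and KDEL receptor genes, the difference was -0.50 for KDELR2. Among the sensors and transcription factors, the difference was -0.36 for ERN1, -0.71 for XBP1, -0.57 for TRIB3 and -0.53 for CREB3L4. Of the 12 fits that left out 1 library, CRELD2 was called in 7, CALR and ERN1 in 8 and TRIB3 in 9, and CALR and ERN1 were not called with no filter.

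The response to the dual knockdown differed between the lines for 13 genes, by the same test, and the knockdown of both targets was deeper in C4-2, whose part in these differences was not tested. These differences share the siScr R1881 libraries with those of the R1881 responses, with opposite signs. Among the luminal chaperones and co-chaperones, the difference was 0.33 for HYOU1, 0.50 for DNAJB9, 0.79 for DNAJC10 and 0.55 for MANF. Among the lectin chaperones, the difference was 0.27 for CANX. Among the translocon and signal peptidase genes, the difference was 0.30 for SEC61A1. Among the genes of ER-associated degradation, the difference was -0.35 for SEL1L and 0.49 for EDEM1. Among the COPII and KDEL receptor genes, the difference was 1.02 for SEC24D and 0.79 for KDELR3. Among the sensors and transcription factors, the difference was 0.44 for XBP1, 0.49 for ATF4 and 0.90 for CREB3L2. Of the 12 fits that left out 1 library, SEL1L and CANX were called in 2, KDELR3 in 4 and XBP1 in 11. CANX was not called with RLE factors, no filter or the GC trend removed, and HYOU1 and SEC61A1 were not called with no filter.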

How the results depend on the processing

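Of 2320 recomputed values of the called genes, 2135 kept their direction and side of the threshold, 184 kept their direction but no longer passed, and 1 changed sign: DNAJC3 between the lines with vehicle, from -0.19 to 0.028 with the GC trend removed. With R1881 in LNCaP all 455 such values were kept. Calls lower with R1881 in C4-2 were 1 with RLE factors and 1 with no filter, against 3. For knockdown in LNCaP, 3 genes rose with the GC trend removed, against 7, and those that fell numbered 0 with no filter or the GC trend removed and 2 with DESeq2 or only the groups compared, against 1. For knockdown in C4-2, 2 fell with the GC trend removed. The cause was not tested in any of these. Leaving out 1 library at a time, calls ranged from 18 to 25 higher and 0 to 1 lower for R1881 in C4-2, from 0 to 8 higher and 0 to 2 lower for knockdown in LNCaP, from 13 to 19 higher and 1 to 2 lower for knockdown in C4-2, and from 10 to 16 higher and 0 to 2 lower for the knockdown response between lines.

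No pairing by replicate number was seen: the correlations of same-numbered deviations ran from -0.0735 to 0.0723. Such values cannot exclude that same-numbered samples were handled together. With the replicate block, 33 genes rose and 2 fell with R1881 in LNCaP, 25 rose and 3 fell in C4-2, 7 rose and 1 fell after knockdown in LNCaP and 19 rose and 1 fell in C4-2. Low genes such as KDELR3 are limited by depth in the shallow C4-2 siScr vehicle replicate 3.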
